A study of Mus musculus with 15 samples.

Results

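Solute carriers are the membrane proteins, numbered by family as Slc genes, that move sugars, amino acids, metals, nucleotides, vitamins, drugs and ions across cell and organelle membranes. The set described here is the 156 Slc genes detected in mouse liver, of 9482 genes tested. A gene belonged to it if its single annotated symbol had the form of Slc, a family number, the letter a and a member number, and if a probe set for it reached a log2 level of 4 on at least 3 of 15 arrays. The array held 304 genes with such symbols, and 148 of them did not reach that level; 5 others, Slc1a2, Slc3a2, Slc10a1, Slc12a4 and Slc40a1, were left out by name. The levels themselves therefore chose the members, and detection as such is a description and no finding.

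The 15 arrays were made from livers of C3H mice aged 15 weeks, with 1 liver RNA sample on each. The treated mutant group (4 arrays) was the C3H/HeJ strain, which carries the Tlr4P712H mutation in Tlr4, the receptor for bacterial lipopolysaccharide, and received DEN (diethylnitrosamine, a liver carcinogen) and CCl4 (carbon tetrachloride, a liver toxin). The antibiotic group (4 arrays) was wild-type C3H/HeOuJ that drank water with antibiotics (500 mg/l vancomycin, and 1 g/l of each of ampicillin, metronidazole and neomycin) for 2 weeks from an age of 10 weeks, and then the same DEN and CCl4. The treated wild type (4 arrays) was C3H/HeOuJ given DEN and CCl4, and the untreated wild type (3 arrays) was C3H/HeOuJ given neither. DEN was injected once, at 100 mg/kg and an age of 12 weeks, and CCl4 at 0.50 ml/kg at 13 and at 15 weeks, with livers taken 48 hours after the last dose. Mutant and wild type are separate inbred strains, so the Tlr4 mutation cannot be told apart from other differences between the strains, and no untreated mutant and no untreated antibiotic group was analysed here. Where the labels give a sex it is male; the label of 1 mutant mouse gives none. The labels do not say that the samples of a group were handled separately after the animals were killed, so each p-value measures the spread between these samples.

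The liver parenchyma consists mainly of hepatocytes, which depend on carriers for their exchange with the blood: facilitative glucose transport by Slc2a2, uptake of organic anions by the Slc22 family, of fatty acids by the Slc27 family and of amino acids by the Slc38 and Slc7 families. Most carriers of the Slc25 family sit in the mitochondrial inner membrane. They exchange nucleotides, aspartate, glutamate, carnitine esters and phosphate between matrix and cytosol. Zinc is moved into the cytosol by the Slc39 family and out of it by the Slc30 family. A few carriers belong to other liver cells, such as Slc11a1, which pumps metal ions out of the phagosome of macrophages.

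Levels below are log2 values of the deposited array summaries, differences are differences of log2 group means ± SE, and a member is said to be higher, lower, risen or fallen only where limma's Benjamini-Hochberg adjusted p over all 9482 genes was under 0.05. Arrays of a group correlated at 0.977 to 0.993, and array medians over the tested genes ran from 7.648 to 7.906. The hepatocyte markers, 10 of 10 detected, summed to 17.28 to 17.38 in treated mutants, 17.29 to 17.45 in the antibiotic group, 17.21 to 17.42 in treated wild type and 17.39 to 17.47 in untreated wild type on the log2 scale. All 10 were detected, and 3 were lower in treated than in untreated wild type. Markers of other cells moved with the groups. The macrophage sum (11 of 11 markers detected) was 10.16 to 10.52 in treated mutants, 11.45 to 12.34 in the antibiotic group, 12.54 to 13.05 in treated wild type and 9.95 to 11.15 in untreated wild type. The stellate cell sum (9 of 10 detected, Des not) was 11.59 to 12.11, 12.61 to 13.32, 13.52 to 13.7 and 10.18 to 11.51 in the same order, and that of dividing cells (7 of 8) 12.5 to 12.91, 12.5 to 13.92, 14.11 to 14.34 and 6.28 to 6.94. In whole liver, fewer cells of a type and less RNA per cell cannot be told apart.

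Of the 156 members, 123 reached 4 on all 15 arrays and 33 were under 4 on at least 1 array. Mean levels over all arrays were 10 or more for 33 members and under 6 for 46. Members just inside the detection rule, by their third-highest value, were Slc22a4 at 4.02, Slc38a1 at 4.03, Slc16a11 at 4.04, Slc26a11 at 4.09 and Slc37a2 at 4.10, and just outside it lay Slc39a13 at 3.97, Slc17a9 at 3.96, Slc31a2 at 3.92, Slc30a3 at 3.90 and Slc8a1 at 3.88. Only 5 members reached 4 in a single group: Slc22a4 and Slc26a11 in untreated wild type, and Slc38a1, Slc7a8 and Slc9a9 in treated wild type. Several carriers known from growing or tumour cells stayed under 4 throughout, namely the cystine carrier Slc7a11 (1.54 to 2.67), the leucine carrier Slc7a5 (2.69 to 3.52), the glutamine carrier Slc1a5 (3.27 to 3.79) and the lactate exporter Slc16a3 (1.79 to 2.57). The citrate carrier Slc13a5 was at 2.53 to 3.58.

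The first comparison sets treated against untreated wild type and asks how DEN and CCl4 altered the carriers. Members that fell included the organic anion carrier Slc22a7, the dicarboxylate carrier Slc13a3, the betaine carrier Slc6a12 and the bile acid ligase and fatty acid carrier Slc27a5. By contrast Slc25a24, a mitochondrial carrier of ATP-Mg, and Slc25a4, the ADP/ATP carrier best known from heart and muscle, rose by more than any other members. Across the 156 members 41 were higher and 65 lower in treated wild type, which is 67.9% called against a background of 62.6% of all tested genes. The split by direction was 26.3% of members higher against 35.9% of all genes, and 41.7% of members lower against 26.7%. The median log2 difference was -0.18 over the members and 0.10 over all genes. The groups' arrays were without overlap for 107 members (68.6%, against 66.4% of all genes). The size of this split depended on scaling, but lower members outnumbered higher ones under each scaling tried. With each array centred on its median 32 members were higher and 80 lower, and the median was -0.41 over the members and -0.12 over all genes. With arrays quantile normalised 34 were higher and 71 lower, with medians of -0.26 and -0.04. Among the 123 members at or above 4 on every array, 26 were higher and 50 lower.

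**Figure D1:**
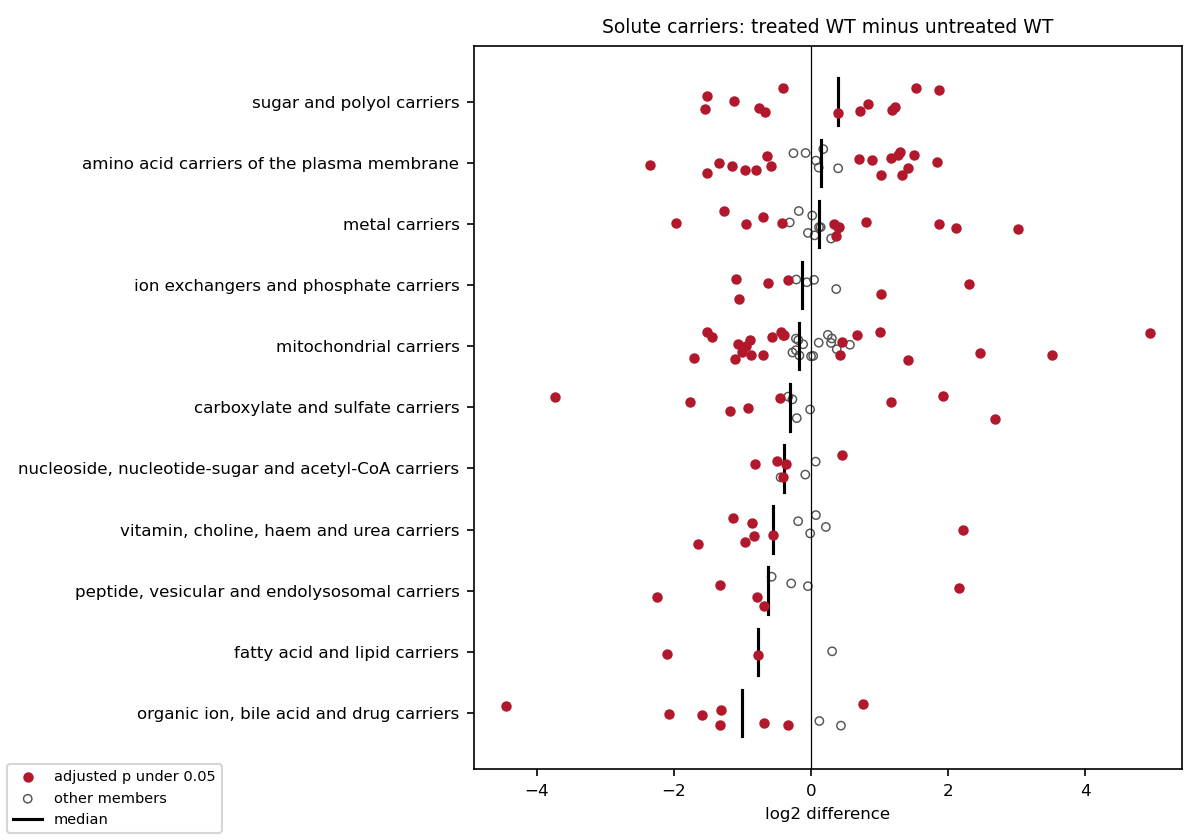
Difference in log2 level of each of the 156 members, treated wild type minus untreated wild type, grouped by what the carriers transport. Each point is 1 member, filled where the adjusted p was under 0.05, and the vertical bar is the median of the group; medians run from 0.40 for the sugar and polyol carriers at the top to -1.002 for the organic ion carriers at the bottom, and the outermost points are Slc25a24 at 4.95 and Slc22a7 at -4.45.

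Slc25a24 was at 8.57, 8.94, 8.04 and 8.39 in treated wild type, against 3.32, 3.94 and 3.35 in untreated wild type. All untreated arrays were under the detection level and all treated arrays far above it, a rise of at least 22.4-fold (4.95 ± 0.24, adjusted p = 8.67e-10). Slc22a7 was at 6.73, 5.79, 7.04 and 5.58 in treated wild type, against 10.91, 10.55 and 10.73 in untreated wild type. The groups lay far apart, with 21.8-fold lower levels after treatment (-4.45 ± 0.56, adjusted p = 7.76e-06). Slc13a3 was at 6.10, 6.24, 4.65 and 5.44 in treated wild type, against 9.62, 9.32 and 9.09 in untreated wild type. It too was without overlap, 13.3-fold lower (-3.73 ± 0.40, adjusted p = 1.9e-06).

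The promoters of 4 members that the comparisons turn on are printed from the RefSeq promoter table of build GRCm38.p6: Slc25a24 and Slc25a4, which rose most, Slc13a3, which fell most after Slc22a7 (no entry in the table), and Slc30a1, whose level separated the mutant and antibiotic groups. Each is the 250 bases before the gene's start, read 5′ to 3′ on the gene's strand. Capitals mark matches, on either strand, to 8 motifs: TGATGNAA (the C/EBP-ATF element bound by ATF4), TGACNNNGC (the antioxidant element of NRF2), TGCNCNC (the metal response element of MTF1), CAAAGTCCA (an HNF4A element), the PPAR direct repeat, the HNF1 palindrome, CACGTG (the E-box of MYC and USF) and CCAAT (the box of NFY). They lie at chr3:109122899-109123148 (plus strand) for Slc25a24, chr8:46211063-46211312 (minus strand) for Slc25a4, chr2:165473198-165473447 (minus strand) for Slc13a3 and chr1:191906531-191906780 (plus strand) for Slc30a1.
Slc25a24: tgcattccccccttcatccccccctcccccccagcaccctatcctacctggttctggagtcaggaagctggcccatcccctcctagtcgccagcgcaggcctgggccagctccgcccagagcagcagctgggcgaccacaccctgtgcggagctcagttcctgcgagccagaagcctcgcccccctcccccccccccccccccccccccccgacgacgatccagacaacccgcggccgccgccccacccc
Slc25a4: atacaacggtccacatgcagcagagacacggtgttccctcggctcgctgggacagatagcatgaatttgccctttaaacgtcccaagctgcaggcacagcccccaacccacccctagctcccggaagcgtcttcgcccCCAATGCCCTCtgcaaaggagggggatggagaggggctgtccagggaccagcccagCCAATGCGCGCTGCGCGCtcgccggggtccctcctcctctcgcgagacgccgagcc
Slc13a3: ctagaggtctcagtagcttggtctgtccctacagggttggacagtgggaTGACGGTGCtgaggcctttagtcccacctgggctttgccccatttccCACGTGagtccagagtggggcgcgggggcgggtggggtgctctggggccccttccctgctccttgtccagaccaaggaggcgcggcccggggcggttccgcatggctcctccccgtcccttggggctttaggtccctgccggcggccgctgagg
Slc30a1: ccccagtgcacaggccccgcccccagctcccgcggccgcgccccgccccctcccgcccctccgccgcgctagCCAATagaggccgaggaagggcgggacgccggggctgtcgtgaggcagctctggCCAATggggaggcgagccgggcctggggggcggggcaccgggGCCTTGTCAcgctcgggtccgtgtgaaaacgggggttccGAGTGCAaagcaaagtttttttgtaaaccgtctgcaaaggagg
The window of Slc25a24 held none of the 8 motifs. That of Slc25a4 held 3 metal response elements and 2 CCAAT boxes, with each box sharing 1 base with a metal response element, and that of Slc13a3 held 1 antioxidant element and 1 E-box. The Slc30a1 window held 1 antioxidant element and 1 metal response element, both on the minus strand, and 2 CCAAT boxes.

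Of the 156 members 121 matched the promoter table, with 165 promoters, and 35 did not. CACGTG was in 15.2% of the members' promoters against 6.02% of all 32851 promoters in the table, TGACNNNGC in 18.8% against 10.2%, and TGCNCNC in 52.1% against 44.4%. CCAAT was in 33.3% against 33.8%, TGATGNAA in 2.42% against 3.45% and CAAAGTCCA in 0.606% against 0.384%. The members' promoters held neither of the long PPAR and HNF1 elements, which were in 0.0335% (PPAR) and 0.00913% (HNF1) of all promoters. By call after treatment, CACGTG was in 13.2% of the 38 promoters of members that rose and 11.5% of the 78 of members that fell, and TGACNNNGC in 23.7% and 20.5%. The 32851 promoters were not limited to genes detected in these livers, so they are not a like set for the members. Promoters and not genes were counted, and 28 members had several. Matching letters are a description of the windows and say nothing of binding.

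Mitochondrial carriers, grouped by the Slc25 family number and not by the place of each protein, were the largest group. They had 36 members of 44 on the array. Of these, 8 were higher (22.2%, against 35.9% of all genes) and 14 lower (38.9%, against 26.7%) in treated wild type, with a median difference of -0.17. Slc25a4 was at 9.87, 10.00, 9.39 and 9.82 in treated wild type, against 5.47, 6.50 and 6.78 in untreated wild type, an 11.5-fold rise (3.52 ± 0.37, adjusted p = 1.68e-06). Its relative Slc25a5, the ADP/ATP carrier of dividing and many other cells, was already high at 12.90 ± 0.09 (SD, n = 3) without treatment and stood at 13.33 ± 0.06 (SD, n = 4) with it, a difference of 0.43 ± 0.10 (adjusted p = 0.00195) that was no longer called with arrays centred (0.21) or quantile normalised (0.15). The aspartate-glutamate carriers are Slc25a12 and Slc25a13. Slc25a12, the form best known from brain and muscle, was at 9.41, 9.58, 9.12 and 9.43 in treated wild type, against 6.85, 6.69 and 7.22 in untreated wild type, 5.52-fold higher (adjusted p = 2.81e-07). Slc25a13, the liver form, was at 10.67 ± 0.04 in treated and 10.78 ± 0.18 in untreated wild type, a difference of -0.11 ± 0.14 that did not pass (adjusted p = 0.503; with arrays centred it was -0.34 and passed at 0.0499). Slc25a12, Slc25a5, Slc25a36 and Slc47a1 were chosen for mention after their values were seen.

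The mitochondrial members that fell most were Slc25a42, a carrier of coenzyme A, and Slc25a47, a carrier found mainly in hepatocytes. Slc25a42 was at 4.03, 4.49, 4.56 and 4.50 in treated wild type, against 6.19, 5.99 and 6.12 in untreated wild type, 3.25-fold lower (-1.70 ± 0.21, adjusted p = 7.79e-06). Slc25a47 averaged 10.92 ± 0.55 in treated and 12.43 ± 0.09 in untreated wild type, 2.85-fold lower (adjusted p = 0.00708). Slc25a20, which brings acylcarnitines into the matrix for oxidation, was at 11.51 ± 0.25 in treated and 11.73 ± 0.01 in untreated wild type, a difference of -0.22 ± 0.16 that did not pass (adjusted p = 0.246), though with arrays centred it was -0.44 and passed at 0.0255.

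Among the metal carriers (21 members of 31 on the array) 7 were higher (33.3%, against 35.9% of all genes) and 5 lower (23.8%, against 26.7%), with a median of 0.12. The zinc importer Slc39a6 was at 7.97, 7.61, 7.18 and 7.49 in treated wild type, against 4.96, 4.06 and 4.61 in untreated wild type. Every treated array exceeded every untreated one, by 8.1-fold on average (3.02 ± 0.29, adjusted p = 6.41e-07). Its close relative Slc39a10 rose 4.36-fold (7.02 ± 0.44 in treated, 4.89 ± 0.29 in untreated, adjusted p = 0.000117). In the other direction, the manganese exporter Slc30a10 was at 5.18, 4.99, 5.33 and 5.26 in treated wild type, against 7.14, 7.22 and 7.13 in untreated wild type. The groups were tight and separate, 3.92-fold lower after treatment (-1.97 ± 0.34, adjusted p = 0.000173). The zinc exporter Slc30a1, a classical target of the metal-sensing factor MTF1, fell 1.92-fold (9.13 ± 0.09 in treated, 10.07 ± 0.10 in untreated, adjusted p = 0.000254), and Slc39a11 fell 2.41-fold. Slc39a8 rose 1.29-fold (0.37 ± 0.10, adjusted p = 0.00344), a call lost with arrays centred (0.15), and the inflammation-responsive zinc, iron and manganese importer Slc39a14 was at 9.66 ± 0.07 in treated and 9.52 ± 0.16 in untreated wild type, a difference that did not pass (adjusted p = 0.45).

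The 13 sugar and polyol carriers (of 31 on the array) were called without exception, against 62.6% of all genes called. Of them, 7 were higher (53.8%, against 35.9% of all genes) and 6 lower (46.2%, against 26.7%). The myo-inositol carrier Slc5a3 was at 9.34, 8.35, 8.24 and 8.30 in treated wild type, against 6.75, 6.46 and 6.84 in untreated wild type, 3.67-fold higher (1.88 ± 0.29, adjusted p = 6.25e-05); with its probe sets averaged the difference was 1.08. Slc45a3 rose at least 2.54-fold, with all untreated arrays under 4. Slc2a1, the glucose carrier of most growing cells, was at 9.96, 9.93, 9.53 and 10.03 in treated wild type, against 9.17, 8.99 and 9.25 in untreated wild type, 1.65-fold higher (adjusted p = 0.00302). The hepatocyte glucose carrier Slc2a2 was at 12.82, 12.66, 12.61 and 12.59 in treated wild type, against 13.03, 13.11 and 13.10 in untreated wild type. It was lower on every treated array but only 1.33-fold on average (adjusted p = 0.0154). Slc37a4, which carries glucose 6-phosphate into the endoplasmic reticulum for the last step of glucose production, fell 2.17-fold (9.82 ± 0.25 in treated, 10.94 ± 0.11 in untreated, adjusted p = 6.74e-05). The fructose carrier Slc2a5 and the glucose carrier Slc5a2, known from kidney, fell at least 2.27-fold and at least 2.63-fold. The single detected marker of the kidney and pancreas list (1 of 8) was also lower, its list summing to 8.48 to 8.87 in treated and 10.96 to 11.12 in untreated wild type. That marker was none of the list's kidney genes Umod, Slc34a1 and Slc12a1, which did not pass detection. In untreated wild type Slc34a1 was at 1.83 to 2.10 and Slc12a1 at 2.24 to 2.30. The part of kidney and pancreas cells in the result was not tested.

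Amino acid carriers (24 members of 56 on the array) divided into 10 higher (41.7%, against 35.9% of all genes) and 8 lower (33.3%, against 26.7%). Slc6a12, which takes up betaine and GABA, was at 5.14, 5.22, 5.56 and 5.68 in treated wild type, against 7.89, 7.71 and 7.63 in untreated wild type, 5.08-fold lower (-2.35 ± 0.18, adjusted p = 5.96e-08). The glycine carrier Slc6a9 fell at least 2.73-fold. Large hepatocyte carriers fell by less: Slc38a4 by 2.52-fold (12.19 ± 0.23 in treated, 13.52 ± 0.10 in untreated), the glutamine carrier Slc38a3 by 1.95-fold (12.06 ± 0.21 and 13.02 ± 0.06) and the cationic amino acid carrier Slc7a2 by 1.49-fold (12.44 ± 0.22 and 13.01 ± 0.12). The Slc7a2 call was lost when its probe sets were averaged (-0.11). The other cationic amino acid carrier, Slc7a1, was at 5.23, 4.28, 4.73 and 4.59 in treated wild type, against 3.06, 3.12 and 2.40 in untreated wild type. It was detected on every treated array and on no untreated one, at least 1.63-fold higher (adjusted p = 2.52e-05). Slc38a1 rose too (1.51 ± 0.21), close to the detection level, and was not called with values under 4 set to 4 (0.26). Of the 8 amino acid carriers listed as linked to the stress factor ATF4, 4 were members, 2 of them higher and 1 lower.

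In the carboxylate and sulfate group (12 members of 28) 3 were higher (25%, against 35.9% of all genes), all of the Slc16 family, and 5 lower (41.7%, against 26.7%). Slc16a6, a carrier of ketone bodies in zebrafish liver, was at 6.81, 7.06, 6.80 and 7.13 in treated wild type, against 4.65, 4.37 and 3.76 in untreated wild type, at least 6.09-fold higher (2.68 ± 0.34, adjusted p = 8.51e-06). The lactate and pyruvate carrier Slc16a1 was at 12.03 ± 0.14 in treated and 10.86 ± 0.13 in untreated wild type, 2.26-fold higher (adjusted p = 1.28e-06). Slc16a5 was called higher (1.94 ± 0.72, adjusted p = 0.0294) over scattered arrays, and the call was lost without untreated replicate 1 (1.25), treated wild-type replicate 1 (1.61) or treated wild-type replicate 2 (1.93), with arrays quantile normalised (1.74) and with values under 4 set to 4 (1.46). The aromatic amino acid carrier Slc16a10 fell 3.41-fold, or by 0.74 on the log2 scale with its probe sets averaged. Of 3 fatty acid carriers detected (of 5), 2 fell (66.7%, against 26.7% of all genes). Slc27a5 was at 11.02, 11.05, 11.17 and 11.18 in treated wild type, against 13.12, 13.25 and 13.25 in untreated wild type, 4.28-fold lower with almost no spread within groups (-2.10 ± 0.17, adjusted p = 1.27e-07), and Slc27a2 fell 1.71-fold.

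Organic ion carriers (10 members of 26) showed the lowest median of the 11 groups, -1.002. Of them, 1 was higher (10%, against 35.9% of all genes) and 7 lower (70%, against 26.7%). Beside Slc22a7, the drug exporter Slc47a1 was at 9.87 ± 0.23 in treated and 11.19 ± 0.01 in untreated wild type, 2.51-fold lower (adjusted p = 8.91e-05). Slc22a4, a carrier of ergothioneine, was at 5.14, 4.09 and 4.02 in untreated wild type alone, with treated arrays at 2.27 to 2.47, and its call was lost with values under 4 set to 4 (-0.41). The member that rose was Slc10a7 (1.69-fold). Of the vitamin, choline, haem and urea group (11 members of 19), 1 was higher (9.09%, against 35.9% of all genes) and 6 lower (54.5%, against 26.7%). Slc44a2, a choline carrier-like protein, was at 7.30, 7.38, 7.78 and 7.30 in treated wild type, against 4.76, 5.83 and 5.07 in untreated wild type, 4.67-fold higher (2.22 ± 0.25, adjusted p = 2.87e-06). The folate carrier Slc46a1 fell 3.13-fold with tight groups (6.53 ± 0.14 in treated, 8.17 ± 0.07 in untreated, adjusted p = 6.74e-08), and the ascorbate carrier Slc23a2 fell at least 1.79-fold.

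The peptide, vesicular and endolysosomal group (8 members of 18) had 1 higher (12.5%, against 35.9% of all genes) and 4 lower (50%, against 26.7%). The member that fell most, Slc17a2, belongs to the sodium phosphate and organic anion carriers. It was at 8.44, 9.36, 9.80 and 9.21 in treated wild type, against 11.74, 11.30 and 11.31 in untreated wild type, 4.76-fold lower (adjusted p = 1.21e-05). The lysosomal sialic acid exporter Slc17a5 fell 2.52-fold. Ion exchangers and phosphate carriers (10 of 35) had 2 higher (20%, against 35.9% of all genes) and 4 lower (40%, against 26.7%). The cation-chloride carriers Slc12a2 (2.13-fold) and Slc12a7 (2.07-fold) were among the lower ones. The higher ones were the organellar sodium-proton exchangers Slc9a7 (at least 1.52-fold) and Slc9a9 (at least 1.22-fold). Slc9a9 passed detection through treated wild type alone, and with values under 4 set to 4 its difference was 0.29 (adjusted p = 0.0387). The nucleoside, nucleotide-sugar and acetyl-CoA group (8 of 11) had 1 higher (12.5%, against 35.9% of all genes) and 4 lower (50%, against 26.7%). In that group the Golgi carrier Slc35a3 fell 1.4-fold, and the nucleoside carrier Slc29a1 fell at least 1.54-fold, a call lost without untreated replicate 2 (-0.72) or 3 (-0.81) and without treated wild-type replicate 2 (-0.75) or 4 (-0.76).

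A list of 25 carriers known from hepatocytes had 22 members. Of these, 18 were lower (81.8%, against 26.7% of all genes) and 1 higher (4.55%, against 35.9%) in treated wild type, with a median of -1.17 against 0.10 over all genes. The list was chosen with earlier results of these data known, so its count is only a description. The hepatocyte markers had 3 of 10 lower and none higher, and the part of hepatocyte content in the carriers' fall was not tested. A list of 7 carriers known from phagocytes had 5 members, Slc11a1, Slc15a3, Slc37a2, Slc29a3 and Slc7a8. Each was called higher, beside 35.9% of all genes. The count carries no weight, since Slc7a8, Slc15a3 and Slc37a2 would not have passed detection without the treated wild-type arrays (4, 4 and 2 of them at 4 or more, 0, 1 and 1 antibiotic arrays, and 0 untreated arrays). Slc11a1, at 4 or more on all 15 arrays, was at 6.46, 6.48, 5.94 and 6.17 in treated wild type, against 4.12, 4.44 and 4.59 in untreated wild type, 3.67-fold higher (1.87 ± 0.24, adjusted p = 1.07e-05). Slc15a3, an endolysosomal peptide and histidine carrier, was at 4.64, 4.48, 4.85 and 4.46 in treated wild type, against 2.19, 2.34 and 2.82 in untreated wild type, at least 1.52-fold higher. The other phagocyte carriers were near the detection level, and the Slc29a3 call (0.46 ± 0.15) was lost with arrays centred (0.23) or quantile normalised (0.21), without untreated replicate 3 (0.42) and without treated wild-type replicate 4 (0.34). Macrophage markers rose with them (9 of 11 higher), as did both detected neutrophil markers (of 7 listed). Those of stellate cells (9 of 9), dividing cells (7 of 7), cholangiocytes (3 of 4) and endothelium (3 of 7) rose too. The 1 detected erythroid marker (of 6 listed) was lower. The part of these cells in the result was not tested.

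**Figure D2:**
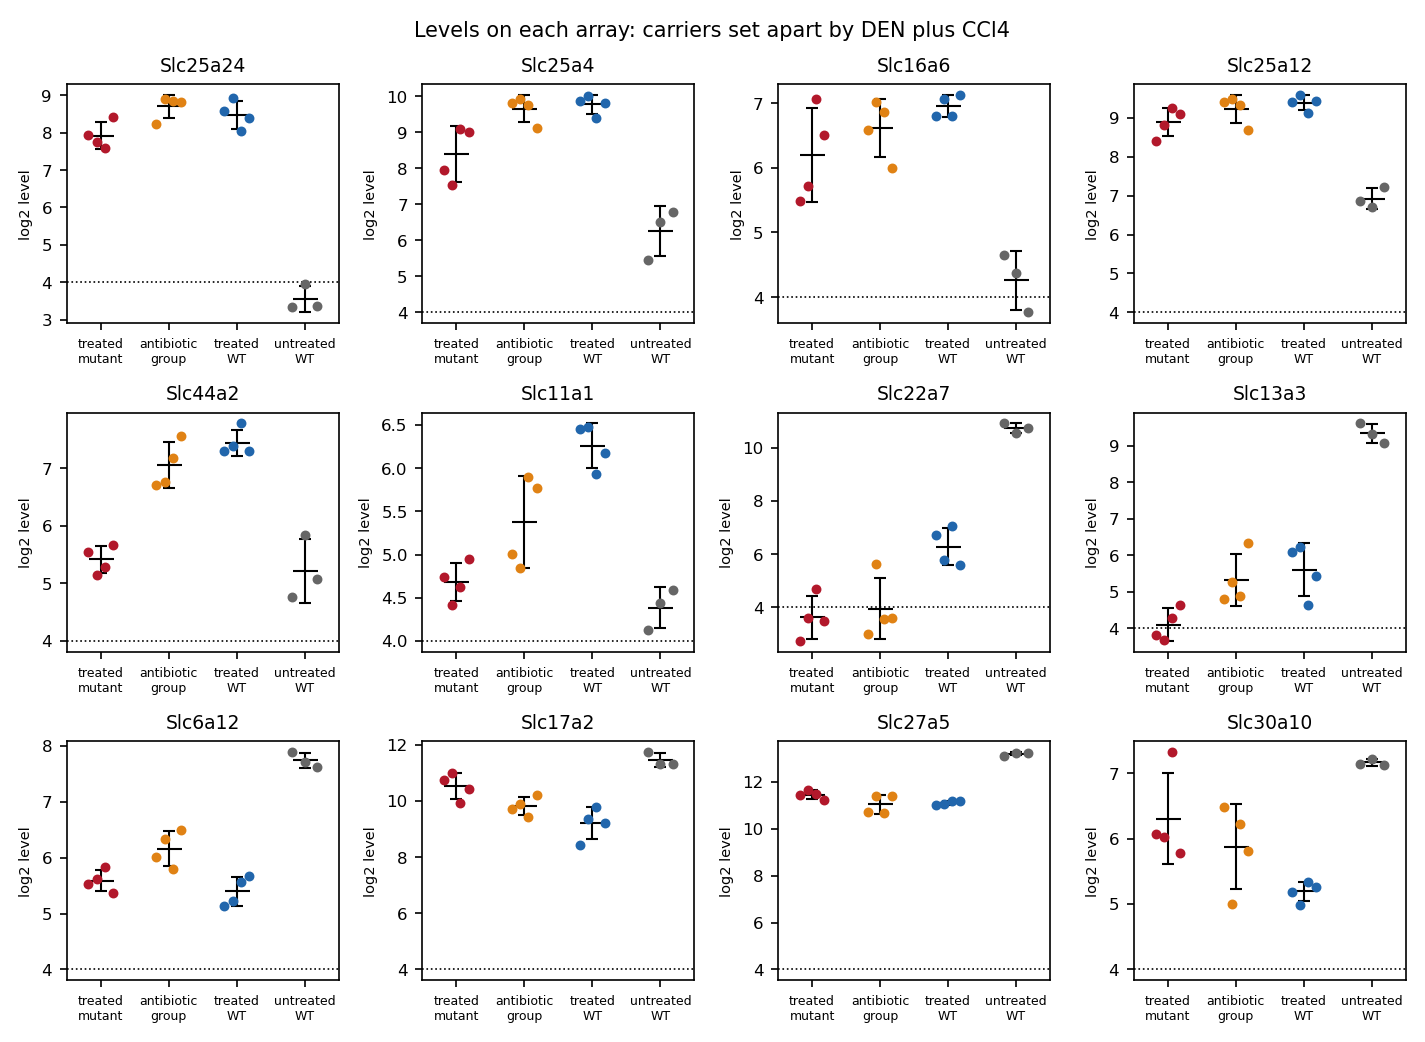
Log2 levels of 12 members on each of the 15 arrays, by group, with the mean and SD of each group and a dotted line at the detection level of 4. Slc25a24 and Slc25a4 sit high in every group given DEN and CCl4 and low in untreated wild type, while Slc6a12, Slc27a5, Slc17a2 and Slc30a10 have their highest mean in untreated wild type, and Slc22a7 falls to 3.63 in treated mutants and 3.95 in the antibiotic group on average.

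The second comparison sets treated mutants against treated wild type and asks how the carriers differ where Tlr4 is mutated and the treatment is the same. Of the 156 members 37 were higher and 28 lower, 41.7% called against 30.8% of all genes. Higher calls made up 23.7% of members (13.2% of all genes) and lower calls 17.9% (17.6% of all genes), and arrays did not overlap for 60 members (38.5%, against 31.1% of all genes). The median was 0.09 over the members and 0.02 over all genes. The count of higher members was 24 without treated mutant replicate 1, the mouse with no sex on its label.

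Carriers lower in the mutant were led by Slc22a7, Slc44a2 and Slc43a3. Slc22a7, already low after treatment, was at 2.74, 3.60, 4.68 and 3.5 in treated mutants, against 6.73, 5.79, 7.04 and 5.58 in treated wild type, at least 4.33-fold lower (-2.65 ± 0.51, adjusted p = 0.00148). Slc44a2 was at 5.54, 5.15, 5.29 and 5.67 in treated mutants, against 7.30, 7.38, 7.78 and 7.30 in treated wild type. The mutant arrays stood within the untreated wild-type range of 4.76 to 5.83, 4.08-fold below treated wild type (-2.03 ± 0.23, adjusted p = 2.2e-05). Slc43a3, which is listed with the amino acid carriers by family but transports purine bases, was at 5.61, 5.21, 5.02 and 5.23 in treated mutants, against 7.67, 6.76, 6.95 and 7.12 in treated wild type, 3.63-fold lower (-1.86 ± 0.26, adjusted p = 0.000143). Of the mitochondrial carriers 7 were higher (19.4%, against 13.2% of all genes) and 4 lower (11.1%, against 17.6%). Slc25a36, a pyrimidine nucleotide carrier, was at 5.54, 5.97, 5.92 and 5.99 in treated mutants, against 7.32, 7.15, 7.23 and 7.05 in treated wild type, 2.52-fold lower and close to the 5.77 ± 0.07 of untreated wild type (SD, n = 3; adjusted p = 1.81e-06). Slc25a4 was 2.6-fold lower (8.39 ± 0.77 in treated mutants, 9.77 ± 0.27 in treated wild type, adjusted p = 0.00808). Slc25a36, Slc47a1, Slc30a4, Slc7a8, Slc38a1, Slc45a3 and Slc22a5 are outside the rule for named genes in this comparison and were chosen after their values were seen.

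Each of the 5 phagocyte carriers was called lower in the mutant, beside 17.6% of all genes. Again Slc7a8, Slc15a3 and Slc37a2 would not be members without the treated wild-type arrays, and they had no mutant array at 4 or more. Slc11a1 was at 4.74, 4.42, 4.62 and 4.95 in treated mutants, against 6.46, 6.48, 5.94 and 6.17 in treated wild type, 2.99-fold lower (adjusted p = 0.000142). Slc15a3 was under 4 on all mutant arrays (2.81 to 3.20) and at least 1.52-fold lower, Slc7a8 under 4 likewise (2.93 to 3.24) and at least 1.44-fold lower, and Slc29a3 at least 1.44-fold lower. Slc37a2 was at 3.05 ± 0.17 in treated mutants and 4.02 ± 0.31 in treated wild type, and Slc9a9 at 3.22 ± 0.23 and 4.29 ± 0.26; neither call held with values under 4 set to 4 (-0.14 and -0.29), and nor did that of Slc38a1 (-0.26). Macrophage markers (10 of 11), stellate cell markers (9 of 9), endothelial markers (7 of 7), both detected neutrophil markers (2 of 7 listed) and those of dividing cells (7 of 7) were lower in the same livers, and 2 of 4 cholangiocyte markers higher; their part in the result was not tested.

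Several carriers of the hepatocyte list, and Slc13a3, which is not on it, did not move together. Slc13a3 was at 3.82, 3.67, 4.29 and 4.65 in treated mutants, against 6.10, 6.24, 4.65 and 5.44 in treated wild type, at least 2.59-fold lower (adjusted p = 0.00736), with 1 wild-type array inside the mutant range. The glucose carrier Slc2a2 was at 11.88, 12.24, 12.41 and 12.18 in treated mutants, against 12.82, 12.66, 12.61 and 12.59 in treated wild type, 1.41-fold lower without overlap (-0.50 ± 0.12, adjusted p = 0.00775). Slc47a1 was 1.95-fold lower (adjusted p = 0.00227). By contrast Slc17a1, a urate and organic anion carrier, was at 9.24, 8.51, 8.30 and 8.79 in treated mutants, against 7.11, 6.59, 6.90 and 6.98 in treated wild type. It stood above untreated wild type as well (7.30 to 7.73), 3.52-fold over treated wild type (1.81 ± 0.25, adjusted p = 0.000108), and its neighbour in the family Slc17a2 was 2.5-fold higher (10.53 ± 0.45 in treated mutants, 9.20 ± 0.56 in treated wild type, adjusted p = 0.00225). Of the 22 hepatocyte carriers 6 were higher (27.3%, against 13.2% of all genes) and 3 lower (13.6%, against 17.6%), with a median of 0.15. None of the 10 hepatocyte markers was called by limma (1 at an unadjusted p under 0.05). Of the 4 ATF4-linked carriers 1 was higher. Slc38a4 (0.42 ± 0.14) and Slc7a2 (0.39 ± 0.13) were called higher, but Slc38a4 lost its call without treated wild-type replicate 1 (0.30) or 2 (0.44) and without mutant replicate 2 (0.37) or 4 (0.38). Slc7a2 lost its call without treated wild-type replicate 2 (0.39) or 3 (0.29) and without mutant replicate 1 (0.40), 3 (0.38) or 4 (0.32), and both lost it with probe sets averaged (0.26 and 0.25).

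The highest difference among mutant members was that of the glycine carrier Slc6a9, at 6.70, 6.31, 5.32 and 5.48 in treated mutants, against 4.18, 3.92, 3.81 and 4.44 in treated wild type, at least 3.47-fold higher (1.86 ± 0.28, adjusted p = 0.000209). In the vitamin, choline, haem and urea group 5 were higher and 3 lower. Slc48a1, which carries haem out of lysosomes, was at 8.59, 8.88, 8.40 and 8.75 in treated mutants, against 7.40, 6.88, 7.11 and 7.01 in treated wild type, 2.94-fold higher (1.56 ± 0.25, adjusted p = 0.000414). The mean of its probe sets gave 0.57, which did not pass, so the probe sets of Slc48a1 disagree in size. The folate carrier Slc19a1 was 2.26-fold higher (6.67 ± 0.20 in treated mutants, 5.49 ± 0.35 in treated wild type, adjusted p = 0.00155). Of the metal carriers 7 were higher and 4 lower: the zinc carrier Slc30a4 was at 10.49, 10.06, 9.30 and 9.71 in treated mutants, against 8.78, 8.68, 8.75 and 8.75 in treated wild type, 2.22-fold higher (adjusted p = 0.000429), and Slc30a10 was 2.16-fold higher (adjusted p = 0.017). Ion exchangers had 4 higher and 1 lower, the peptide and vesicular group 4 and 1, the amino acid carriers 6 and 6, and the sugar carriers 0 and 5. Nucleoside carriers had 2 and 1, organic ion carriers 2 and 2, carboxylate carriers 0 and 1, and fatty acid carriers 0 and 0 by limma (2 of 3 at an unadjusted p under 0.05). Beside the role counts of this comparison, 13.2% of all genes were higher and 17.6% lower. For Slc31a1, a copper importer, the probe set standing for the gene was called higher (0.59) and another called lower (-0.47), and the Slc16a10 probe sets were called in both directions too (0.92 and -0.83).

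The third comparison sets the antibiotic group against treated wild type and asks how the carriers differ where antibiotics were given in the water before the same treatment. It uses the same treated wild-type arrays as the mutant comparison, so the differences of the 2 comparisons are not independent and are only set side by side. Of the members 19 were higher and 13 lower, 20.5% called against 14% of all genes. Higher calls were 12.2% of members and 4.95% of all genes, lower calls 8.33% and 9.01%, and arrays did not overlap for 41 members (26.3%, against 18.1% of all genes). The median was 0.06 over the members and -0.03 over all genes.

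**Figure D3:**
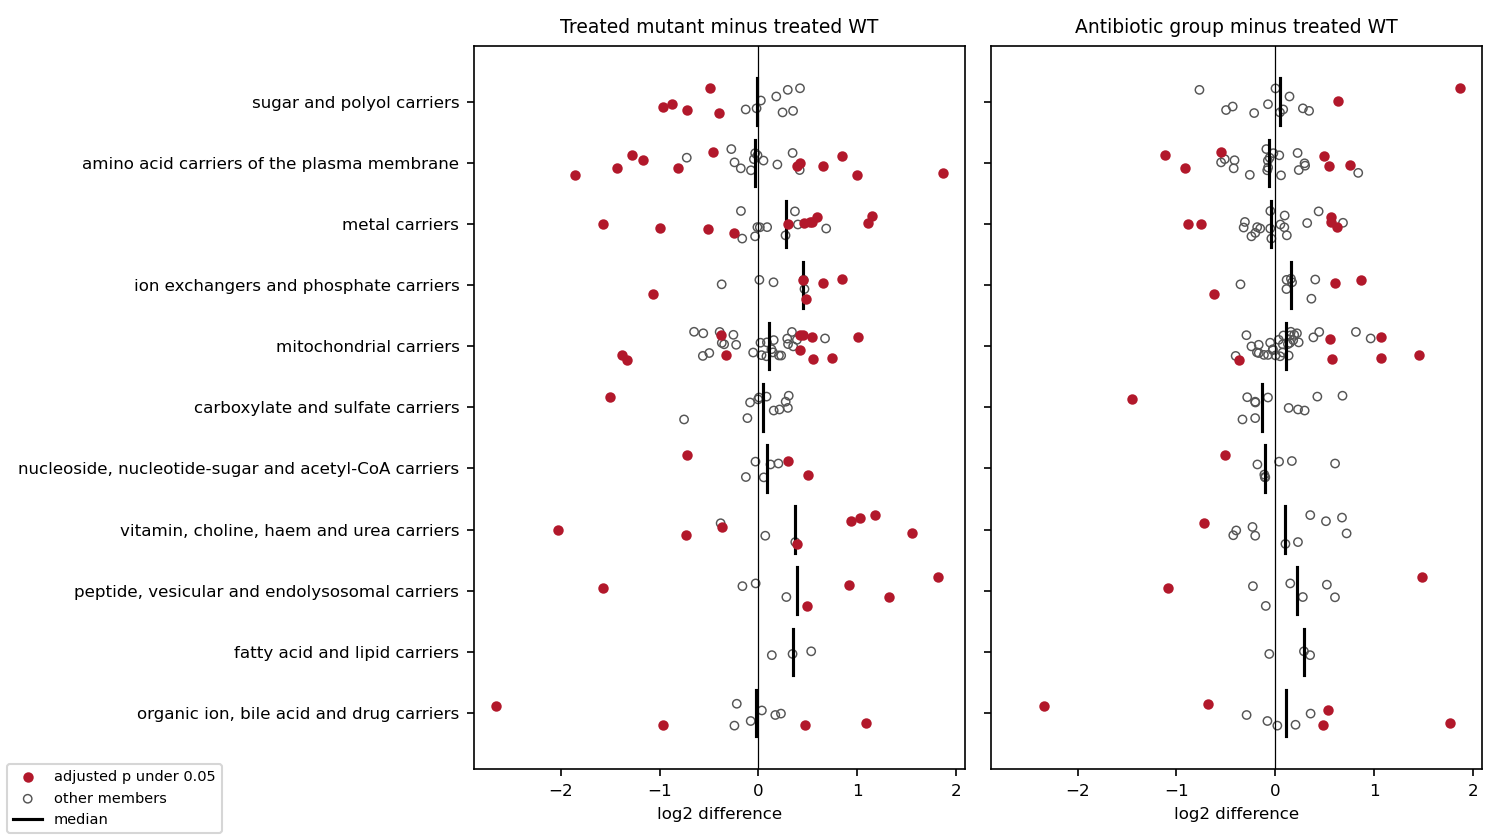
Difference in log2 level of each of the 156 members in treated mutants minus treated wild type (left) and in the antibiotic group minus treated wild type (right), with the members grouped by what they transport, filled where the adjusted p was under 0.05, and a vertical bar at each group's median. Both panels share the treated wild-type arrays; 65 points are filled on the left and 32 on the right, and Slc22a7 is the lowest point of each panel at -2.65 and -2.34.

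Slc22a5, which imports carnitine, was at 8.94, 8.19, 8.60 and 8.41 in the antibiotic group, against 6.41, 6.85, 7.02 and 6.76 in treated wild type. The groups were separate, 3.42-fold apart (1.77 ± 0.25, adjusted p = 0.00115), and untreated wild type lay between them at 7.38 to 7.51; in treated mutants Slc22a5 was 2.13-fold above treated wild type (1.09 ± 0.25, adjusted p = 0.00488). Slc25a20, the mitochondrial carrier of acylcarnitines, was at 12.07 ± 0.13 in the antibiotic group and 11.51 ± 0.25 in treated wild type, 1.47-fold higher (adjusted p = 0.0227). That call was lost without treated wild-type replicate 1 (0.43) or 4 (0.55) and without antibiotic replicate 1 (0.49). Slc25a25, a relative of Slc25a24 that also carries ATP-Mg, was at 7.56, 7.08, 6.68 and 6.58 in the antibiotic group, against 5.91, 5.10, 5.17 and 5.91 in treated wild type, 2.74-fold higher (1.46 ± 0.24, adjusted p = 0.00246; 2.11 with probe sets averaged). The coenzyme A carrier Slc25a42 was 2.1-fold higher (5.47 ± 0.25 in the antibiotic group, 4.40 ± 0.25 in treated wild type, adjusted p = 0.00414). Of the mitochondrial members 5 were higher (13.9%, against 4.95% of all genes) and 1 lower (2.78%, against 9.01%).

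Slc45a3 had the highest difference of any member, at 7.23, 6.78, 6.93 and 7.91 in the antibiotic group, against 5.11, 5.59, 5.26 and 5.43 in treated wild type, 3.65-fold higher (1.87 ± 0.29, adjusted p = 0.00208), whereas its difference in treated mutants was 0.42 ± 0.29 (adjusted p = 0.304). It and Slc37a4 were the sugar carriers called, 2 higher (15.4%, against 4.95% of all genes) and 0 lower (against 9.01% of all genes). Slc37a4 was at 10.46 ± 0.07 in the antibiotic group and 9.82 ± 0.25 in treated wild type, 1.55-fold higher (adjusted p = 0.0194), a call lost without treated wild-type replicate 2 (0.59) or 3 (0.55) and without antibiotic replicate 1 (0.60). Slc17a1 was at 8.58, 7.75, 8.17 and 9.02 in the antibiotic group, against 7.11, 6.59, 6.90 and 6.98 in treated wild type, 2.8-fold higher (1.49 ± 0.25, adjusted p = 0.00277). Slc39a14 was at 10.23, 10.04, 10.53 and 10.36 in the antibiotic group, against 9.74, 9.56, 9.68 and 9.68 in treated wild type, 1.54-fold higher (adjusted p = 0.0134), though the mean of its probe sets gave 0.17, which did not pass. The anion exchanger Slc4a2 was called higher by 0.87 ± 0.24 (adjusted p = 0.0275), a call lost without treated wild-type replicate 1 (0.76) or 4 (0.90) and without antibiotic replicate 3 (0.68) or 4 (0.74).

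Lower in the antibiotic group was again Slc22a7, at 3.02, 5.63, 3.55 and 3.59, against 6.73, 5.79, 7.04 and 5.58 in treated wild type. Of the antibiotic arrays 1 overlapped the wild-type range and the other 3 were under 4, at least 3.67-fold lower on average (-2.34 ± 0.51, adjusted p = 0.00992). Slc16a4, a monocarboxylate carrier-like protein, was at 4.81, 3.91, 4.24 and 3.68 in the antibiotic group, against 6.07, 5.14, 5.88 and 5.35 in treated wild type, at least 2.54-fold lower (-1.45 ± 0.29, adjusted p = 0.00618). The zinc exporter Slc30a1 was at 8.85, 8.03, 8.43 and 8.20 in the antibiotic group, against 9.06, 9.10, 9.26 and 9.11 in treated wild type, 1.68-fold lower without overlap (-0.75 ± 0.16, adjusted p = 0.00819), a call lost when its probe sets were averaged (-0.41). Slc46a3, a lysosomal carrier, was called lower by -0.72 ± 0.20 (adjusted p = 0.0293), but leaving out any array other than treated wild-type replicate 2 or antibiotic replicate 2 ended the call. A fit of these 2 groups alone also ended the calls of Slc46a3, Slc4a2, Slc11a1 and Slc29a3. The Slc46a3 differences in the leave-outs that ended its call were -0.72, -0.66 and -0.70 for treated wild-type replicates 1, 3 and 4 and -0.64, -0.62 and -0.67 for antibiotic replicates 1, 3 and 4.

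Of the 5 phagocyte carriers 4 were called lower in the antibiotic group, with the same limit for Slc7a8 and Slc15a3, which would not be members without the treated wild-type arrays. Slc11a1 was at 5.0, 4.84, 5.90 and 5.77 in the antibiotic group, against 6.46, 6.48, 5.94 and 6.17 in treated wild type, 1.85-fold lower (adjusted p = 0.0185), a call lost without treated wild-type replicate 2 (-0.81) or antibiotic replicate 1 (-0.76). Slc15a3 was at least 1.52-fold lower and Slc7a8 at least 1.44-fold lower. Slc29a3 was called (-0.51 ± 0.14, adjusted p = 0.0266) but not without treated wild-type replicate 1 (-0.46) or 4 (-0.39) or antibiotic replicate 1 (-0.45) or 4 (-0.47), and Slc38a1, an amino acid carrier, was called only until values under 4 were set to 4 (-0.26). Markers of macrophages (9 of 11), stellate cells (6 of 9), dividing cells (6 of 7) and both detected neutrophil markers were lower in these livers too, and no endothelial marker was called by limma (1 of 7 at an unadjusted p under 0.05); their part in the result was not tested. Of the 22 hepatocyte carriers 5 were higher (22.7%, against 4.95% of all genes) and 1 lower (4.55%, against 9.01%), with a median of 0.30. No hepatocyte marker was called by limma (0 at an unadjusted p under 0.05). Elsewhere amino acid carriers had 3 higher and 3 lower, metal carriers 3 and 2, ion exchangers 2 and 1, and organic ion carriers 3 and 2. The peptide and vesicular group had 1 and 1, carboxylate, nucleoside and vitamin carriers 0 and 1 each, and fatty acid carriers 0 and 0 by limma (1 of 3 at an unadjusted p under 0.05). Beside these role counts, 4.95% of all genes were higher and 9.01% lower. Of the ATF4-linked carriers none of 4 was called by limma, with 2 at an unadjusted p under 0.05.

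**Figure D4:**
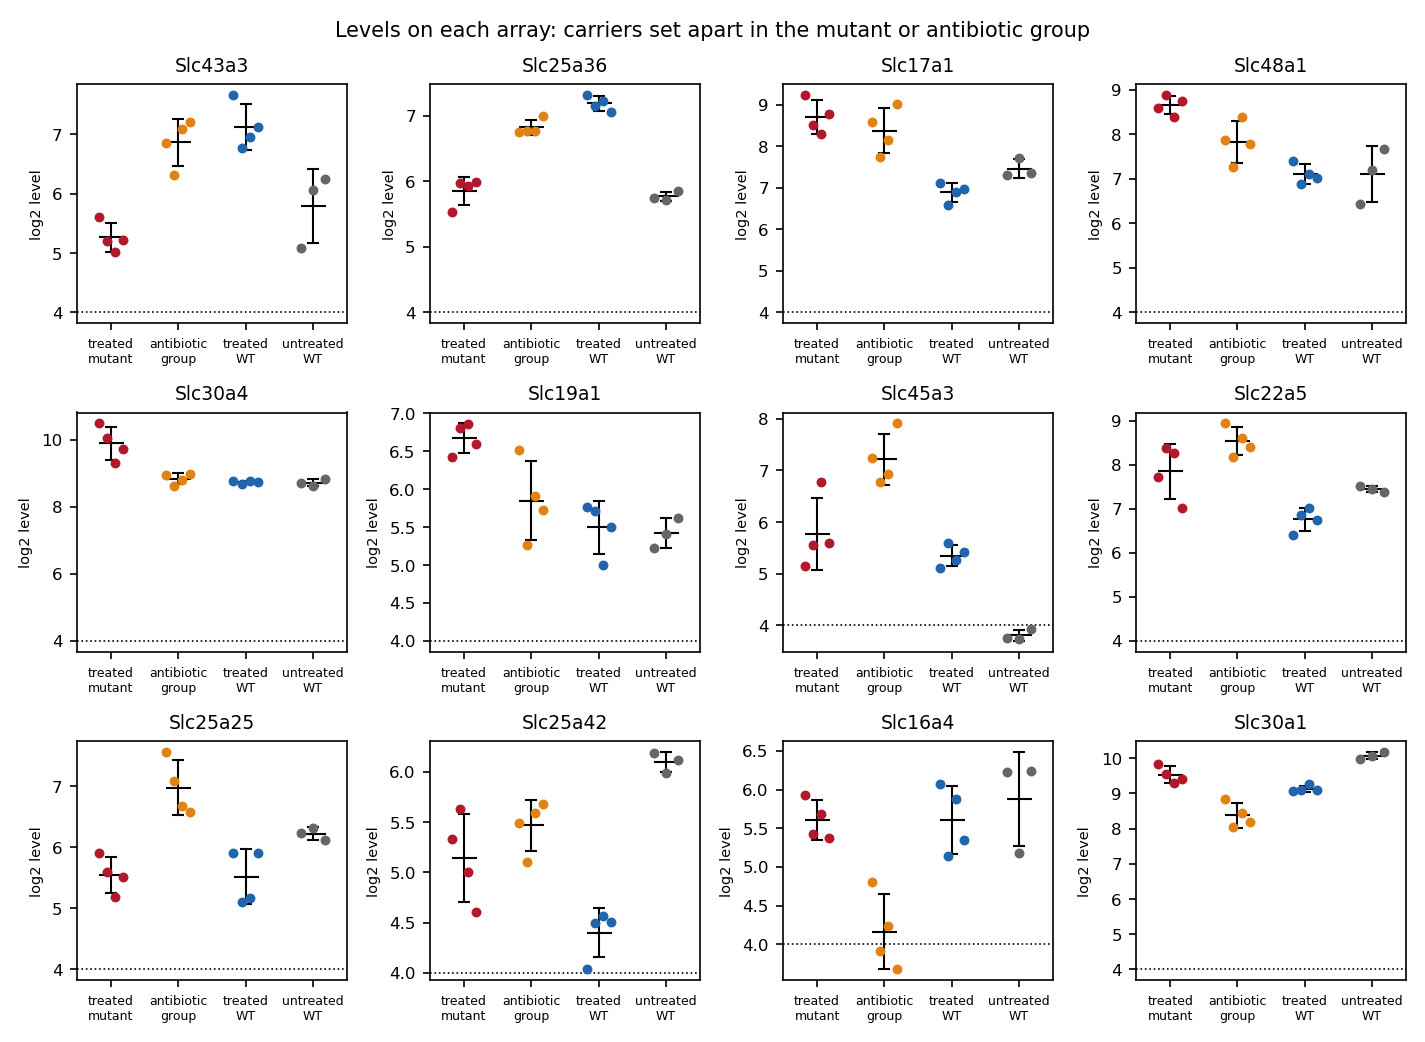
Log2 levels of 12 members on each of the 15 arrays, by group, with the mean and SD of each group and a dotted line at the detection level of 4. Slc43a3 lies at 5.02 to 5.61 in treated mutants and 6.32 to 7.22 in the antibiotic group, Slc25a25 at 5.18 to 5.90 and 6.58 to 7.56, Slc17a1 lies above both wild-type groups in each, and Slc16a4 and Slc30a1 are lowest in the antibiotic group.

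Because the mutant and antibiotic differences rest on the same treated wild-type arrays, the members that set the 2 groups apart were tested directly, treated mutants against the antibiotic group. Here 14 members were higher and 19 lower in treated mutants, 21.2% called against 12.3% of all genes. Higher calls were 8.97% of members and 5.41% of all genes, lower calls 12.2% and 6.88%. Arrays did not overlap for 33 members (21.2%, against 15.6% of all genes). Leaving out treated mutant replicate 1 brought these counts to 9 and 9, mutant replicate 4 to 9 and 17, antibiotic replicate 2 to 9 and 13, and antibiotic replicate 3 to 9 and 10, and a fit of these 2 groups alone gave 7 and 7. The members named in this comparison were chosen after their values were seen.

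Slc44a2 averaged 5.41 ± 0.24 in treated mutants and 7.05 ± 0.40 in the antibiotic group (SD, n = 4 each), 3.1-fold lower in mutants (-1.63 ± 0.23, adjusted p = 0.000734), where its antibiotic difference from treated wild type was -0.39 ± 0.23 (adjusted p = 0.285). Slc43a3 likewise was 3.04-fold lower in mutants (5.27 ± 0.25 against 6.87 ± 0.40, adjusted p = 0.00187), with an antibiotic difference from treated wild type of -0.26 ± 0.26. Slc47a1 was 2.25-fold lower (adjusted p = 0.00226). The carriers with higher levels in the antibiotic group, Slc45a3 (2.73-fold lower in mutants, adjusted p = 0.00598) and Slc25a25 (2.69-fold lower, adjusted p = 0.00206), differed between the groups, as did Slc39a14 (1.55-fold lower, adjusted p = 0.0126; 0.061 in a fit of these 2 groups alone). In the other direction the zinc carriers Slc30a1 and Slc30a4 were higher in mutants. Slc30a1 was at 9.85, 9.55, 9.30 and 9.42 in treated mutants, against 8.85, 8.03, 8.43 and 8.20 in the antibiotic group, 2.22-fold higher (1.15 ± 0.16, adjusted p = 0.000588), and Slc30a4 was 2.07-fold higher (adjusted p = 0.00286). Slc16a4 was at least 2.53-fold higher (adjusted p = 0.00531). For Slc17a1, high in both groups, the difference of 0.33 ± 0.25 did not pass (adjusted p = 0.415), and its size is known only to that error. Macrophage markers (10 of 11), stellate cell markers (6 of 9) and endothelial markers (7 of 7) were lower in mutants than in the antibiotic group; their part in the result was not tested. By role, metal carriers had 3 higher and 1 lower, amino acid carriers 1 and 5, mitochondrial carriers 2 and 5 and sugar carriers 1 and 4, and of the phagocyte carriers 1 of 5 was lower. Of the 22 hepatocyte carriers 5 were lower and none higher, and of the 4 ATF4-linked carriers 1 was higher. Beside these role and list counts, 5.41% of all genes were higher in mutants and 6.88% lower.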

How the data were processed

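Liver RNA, 1 sample per array, was measured on an Affymetrix 3' expression array covering the mouse genome. The deposited values are log2 probe set summaries made by the authors with GCRMA (background correction and normalisation between arrays), per the submitters' processing notes; its version and settings are not given in the sources used here. The table had 0 missing values. Arrays give no molecule counts, so precision is limited by the number of arrays, and 34.6% to 36.7% of probe sets per array reached log2 4, taken as the detection level.

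Probe sets were named through a platform table and the gene table of GRCm38.p6: 34945 of 45101 carried 1 symbol, 932 several, 9160 none and 64 were controls. Probe sets at 4 or more on at least 3 arrays were kept (15541), and the highest-mean one stood for its gene (9482 genes). Of the members, 53 had several kept probe sets; those called in opposite directions were Slc30a7 (-0.42 for the one standing for the gene and 1.36 for another, treated against untreated wild type), Slc16a10 in the mutant comparison, and Slc31a1 in the mutant and antibiotic comparisons (0.57 and -0.59 for the antibiotic group).

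Groups came from the sample titles. limma 3.58.1 in R 4.3.3 fitted 4 group means to 15 arrays (11 residual degrees of freedom, prior 3.4), with Benjamini-Hochberg adjustment over 9482 genes in each comparison; the fit was tested on simulated data. A fold is "at least" where the lower group had arrays below 4, which were set to 4; no fold is given where the higher group had such arrays. Named genes were the 2 highest and 2 lowest calls per role after treatment, the largest call per role and the 5 highest and 5 lowest in the mutant and antibiotic comparisons, a fixed set, members at the edge of detection and those with opposing probe sets; others are marked as chosen after their values were seen. The members and lists were chosen with earlier results of these data known. Role lists follow Slc family numbers, and close paralogs within a family, such as those of Slc22a, are open to cross-hybridisation. Tables and plots used Python 3.11.15, pandas 2.3.3 and matplotlib 3.10.9. A label description giving other ages and a liver resection contradicts the other labels and was not used.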

Additional observations from a re-analysis of the deposited data

Results flagged for a closer look

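A sample was picked out where it lay far from the other 3 of its group, by Dixon's test, among 67 named members in the 3 groups of 4 arrays (201 sets). There were 14 such sets; chance gives about 1 in 20. On treated wild-type replicate 1 these were Slc25a42 at 4.03 (others 4.49 to 4.56), Slc38a4 at 11.84 (12.26 to 12.33), Slc4a2 at 5.83 (6.25 to 6.30) and Slc5a3 at 9.34 (8.24 to 8.35). Slc9a9 on treated wild-type replicate 3 was at 4.67 (4.11 to 4.20). In treated mutants, replicate 1 stood low for Slc25a36 at 5.54 (5.92 to 5.99) and Slc9a9 at 2.88 (3.30 to 3.36). In the antibiotic group, replicate 1 was low for Slc25a24 at 8.25 (8.81 to 8.91), and replicate 2 was high for Slc46a3 at 9.65 (8.63 to 8.78) and for Slc9a9 at 3.72 against 3.65 on the others, a gap of little size. Antibiotic replicate 3 was high for Slc37a2 at 4.10 (3.39 to 3.46) and low for Slc38a4 at 12.13 (12.55 to 12.63), and replicate 4 was high for Slc39a11 at 8.38 (7.44 to 7.51) and Slc25a36 at 7.0 (6.75 to 6.77).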

How the results depend on the processing

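The fit was repeated with centred or quantile-normalised arrays, with a floor of 4, with the low-value filter dropped or moved to log2 6, with probe sets averaged, with 2 groups only, with a robust trended prior, and without each array in turn. With arrays centred, 28.6% of called members were higher after treatment in wild type, against 38.7% as deposited. The lower members of the antibiotic group against treated wild type were 13, and 8 with the filter at 6. Leaving out 1 array, counts of higher and lower members ran from 36 to 43 and 56 to 63 (treated against untreated wild type), 24 to 37 and 21 to 32 (mutant against treated wild type), 14 to 25 and 9 to 12 (antibiotic group against treated wild type) and 9 to 16 and 9 to 19 (mutant against antibiotic group). A fit of the 2 groups alone gave 7 and 7 in the last comparison. Of 55 members named after treatment, calls were lost under other alternatives for 7 and on leaving out an array for 3; of 38 named in the mutant comparison, 6 and 2; of 33 in the antibiotic comparison, 7 and 6; and of 10 in mutants against the antibiotic group, 1 and 0. Directions reversed only for differences that had not passed: Slc39a14 was -0.0795 after treatment with arrays centred, and in the mutant comparison 0.0315 centred, 0.0163 quantile normalised and -0.11 to 0.11 on leaving out an array. Also in the mutant comparison, Slc39a8 was 0.0081 centred and -0.0708 to 0.004 on leaving out an array, Slc27a2 -0.0177 to 0.25, Slc37a4 -0.12 to 0.18 and Slc38a3 -0.15 to 0.0169. In the antibiotic comparison Slc27a5 was -0.17 to 0.0597, Slc2a2 -0.096 to 0.052 and Slc38a3 -0.19 to 0.0127. Beyond the calls lost by construction (fewer samples or genes, values set to 4), the cause was not tested. No paired analysis was possible because the labels number the arrays through the whole series and share no replicate number between groups. Levels near 4 limit what the arrays can show for the 33 members with an array under it.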

Other observations

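Transport proteins of the liver outside the Slc numbering gave 28 tested genes of 34 listed. After treatment in wild type 7 were higher (25%, against 35.9% of all genes) and 13 lower (46.4%, against 26.7%), with a median of -0.31. The organic anion carrier Slco1a1 differed by -4.79 ± 0.67, Abcc6, an exporter of hepatocytes, by -4.48 ± 0.25, the sterol exporter subunit Abcg8 by -2.52 ± 0.36, the organic anion carriers Slco1b2 and Slco2b1 by -2.34 ± 0.17 and -2.26 ± 0.24, and the bile salt export pump Abcb11 by -1.73 ± 0.23. The multidrug exporters Abcb1a and Abcb1b were higher by 1.05 ± 0.22 and 1.39 ± 0.32. In treated mutants against treated wild type 5 were higher (17.9%, against 13.2% of all genes) and 6 lower (21.4%, against 17.6%), with Abcc4 at 2.11 ± 0.40, Abcg8 at 2.06 ± 0.34 and Abcc6 at 1.56 ± 0.23, and with Abcb1b at -1.61 ± 0.30 and the water channel Aqp1 at -1.51 ± 0.29. In the antibiotic group against treated wild type 4 were higher (14.3%, against 4.95% of all genes) and 4 lower (14.3%, against 9.01%), led by Abcg8 at 1.42 ± 0.34 and Slco1a1 at -2.36 ± 0.62. In mutants against the antibiotic group 4 were higher (14.3%, against 5.41% of all genes) and 4 lower (14.3%, against 6.88%), the largest being Slco1a1 at 3.58 ± 0.62, whose difference in mutants from treated wild type was 1.22 ± 0.62 and did not pass (adjusted p = 0.15). These genes were listed with results of the data known, and passing genes carried an adjusted p from limma under 0.05. Mean levels of Abcg8 (4.36) and Abcc6 (4.50) in treated wild type lay near the detection level of 4. The Abcb1b mean was 4.21 in untreated wild type and 3.99 in treated mutants. Differences that use these means rest on levels near or under 4, and their sizes are given without a floor.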
